A study of Saccharomyces cerevisiae with 46 samples.

Results

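BUB3 (YOR026W) is a gene of 1026 bases on chromosome XV, at 379781 to 380806 of the R64 assembly of budding yeast, and it was examined here through the sequencing depth of the bins that overlap it and of 10 bins on either side. The bins are 1000 bases long and fixed by position, so the choice used no measured value: 2 bins overlap BUB3 and 20 flank it, 22 of 12165 bins in all. The series sequenced genomic DNA from 46 overnight cultures of Saccharomyces cerevisiae, all of strain W303, under a title on chromosome-specific aneuploidy in Bub3-deficient cells. The 20 lines, named by a letter and a digit between A1 and G4, each gave 1 non-evolved and 1 evolved sample. Lines C2, E3 and G4 gave 1 further sample named evolved_Bub3, and a wildtype, LY1, gave 1 sample in each of the states non-evolved, evolved and evolved_Bub3. The labels state no allele or ploidy for any line, do not say whether a line is 1 clone or how lines relate, and do not say what was done to reach the evolved_Bub3 state.

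Bub3 is a WD40-repeat protein of the spindle assembly checkpoint, the surveillance system that holds cells before anaphase until every chromosome is attached to the spindle. It binds Bub1 and Mad3 and brings Bub1 to phosphorylated kinetochores, and in budding yeast cells can live without it, with frequent chromosome mis-segregation. The neighbouring genes have other roles: HST3, which ends inside the first of the BUB3 bins, encodes a sirtuin that deacetylates histone H3, and STI1, which starts just after BUB3, encodes a co-chaperone of Hsp70 and Hsp90.

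Each value below, called a level, is the deposited log2 copy ratio of a bin minus the median of chromosome XV in the same sample, so a level of 0 is the depth of the chromosome and a step of 1 is a 2-fold change. Bins of other chromosomes were taken relative to the median of their own. Recovered reads totalled 1961866 to 3770032 per sample, and a bin at the XV median held 127 to 291 reads. The spread between the bins of XV within a sample was 0.12 to 0.19 (SD estimated from the median absolute deviation). The median of XV itself lay between -0.05 and 0.01 of the sample baseline in all 46 samples, so chromosome XV was neither gained nor lost in any. Intervals on single values are exact Poisson intervals at 95% for the reads of the bin and cover counting error only.

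BUB3 does not fill its bins. The first, 379001 to 380000, holds the end of HST3, the stretch between the genes and the first 220 bases of BUB3, which are 22% of the bin. The second, 380001 to 381000, holds the other 806 bases, 80.6% of the bin, and no other gene. If the BUB3 bases had no reads and all other bases stood at the level of XV, the levels would be -0.36 in the first and -2.37 in the second bin.

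In the second BUB3 bin the 20 lines fell far apart, both before and after evolution. The non-evolved levels ran from -1.96 in B3 through a median of -1.44 to 0.11 in D3, and 11 of 20 lay under -1. The evolved levels ran from -1.97 in F4 through a median of -1.57 to 0.18 in D1, and again 11 of 20 lay under -1. No sample lay in the middle: the widest space between neighbouring lines was 1.15 in the non-evolved state, between A3 at -1.37 and A4 at -0.22, and 1.28 in the evolved state, between A2 at -1.53 and F3 at -0.25. In each state the counting intervals overlapped in 18 of the 19 pairs of neighbours in this order, the pair at the space being the exception, so next neighbours on either side of it were not told apart by the counts.

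The same 11 lines lay below the space in both states: A2, A3, B3, C2, C4, D2, D4, E3, E4, F4 and G4. The other 9, G1, F3, D3, D1, C3, C1, B2, A4 and A1, lay above it in both states. In the 22 samples of the former the second bin ranged from -1.97 in F4 evolved to -1.37 in A3 non-evolved, on 45 to 89 reads, which is 0.256 to 0.388 of the depth of XV. In the 18 samples of the latter it ranged from -0.25 to 0.18, on 132 to 284 reads. The wildtype lay within this upper range, at -0.05 on 168 reads when non-evolved and 0.06 on 263 reads when evolved. These sets of lines are read from the BUB3 level itself; they are not groups of the study, and no test was made between them.

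The first BUB3 bin showed the same separation in part, with smaller drops. The non-evolved levels ran from -1.14 in G4 through a median of -0.48 to 0.19 in F3, and the evolved levels from -0.96 in B3 through a median of -0.46 to 0.07 in D3. The counting intervals of neighbours overlapped in 19 of 19 pairs in each state, so this bin alone had no resolved space. In the 22 samples with a low second bin it lay between -1.14 (G4 non-evolved) and -0.37 (C2 non-evolved). In the other 18 samples of lines it lay between -0.33 and 0.19, and the wildtype had 0.07 and -0.13 in the non-evolved and evolved states.

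**Figure D1:**
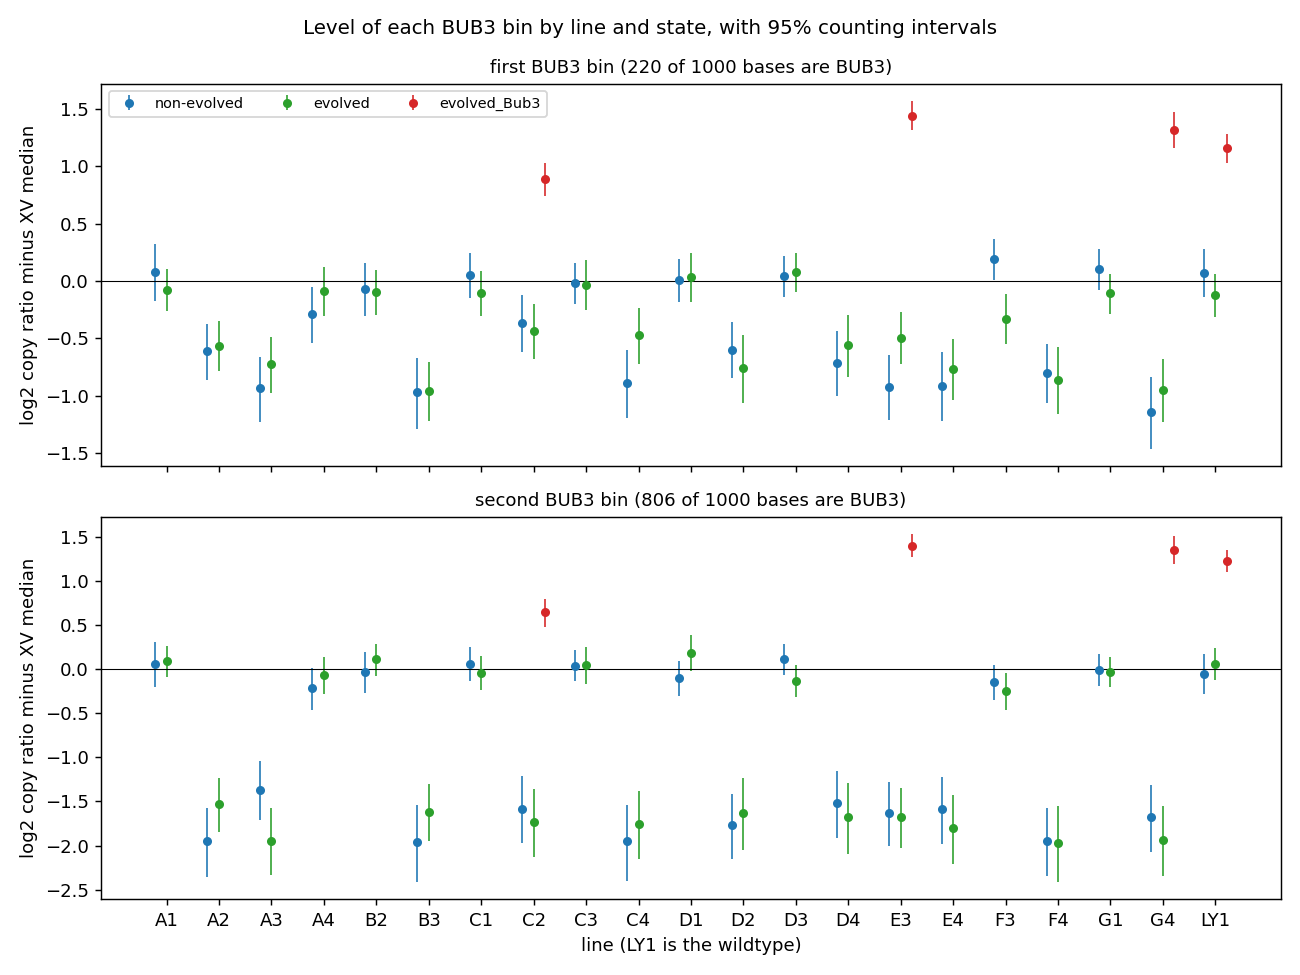
Level of the first (top) and second (bottom) BUB3 bin in every line, as log2 copy ratio minus the median of XV; colours mark the state and bars the 95% counting interval of 1 sample. In the second bin 11 lines lie between -1.97 and -1.37 in the non-evolved as well as the evolved samples and 9 lines lie between -0.25 and 0.18, while all 4 evolved_Bub3 samples lie above 0.

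Among the 9 upper lines, F3 and A4 gave the lowest values, each in 1 state only. F3 evolved had -0.33 (interval -0.55 to -0.12) in the first and -0.25 (interval -0.47 to -0.04) in the second bin, on 175 and 185 reads. F3 non-evolved had 0.19 and -0.15. A4 non-evolved had -0.29 and -0.22, and A4 evolved -0.09 and -0.07. These departures from 0 were at most 0.33, against a bin-to-bin spread within samples of 0.12 to 0.19. In the first bin F3 evolved lay close to the highest of the low-BUB3 samples, C2 non-evolved at -0.37, and in the second bin it lay well above all of them.

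The low samples lacked about the length of BUB3 or somewhat more, spread over both bins otherwise than the gene is. Expressed as bases at the depth of XV, the depth missing from both bins together was 890 (C2 non-evolved) to 1234 (G4 non-evolved), and the counting interval held the length of BUB3, 1026 bases, in 15 of 22 samples. The other 7 intervals all lay above it, the median was 1108 bases and 16 of 22 values exceeded 1026. The first bin lacked 224 to 547 bases, where the gene covers 220, and lay under the level of -0.36 in 22 of 22 samples. The second bin lacked 612 to 744 bases, where the gene covers 806, and lay above the level of -2.37 in 22 of 22. The counting interval of the bin held that level in 6 of 22 samples for the first and 3 of 22 for the second bin. In point values the missing depth was therefore shifted toward the HST3 side relative to the gene, though not beyond counting error in every sample. The second bin had at least 45 reads in every sample, and 19.4% of its bases lie outside BUB3. Whether any of these reads came from BUB3 was not tested. How reads were assigned to bins is not given in the sources used here, and its part in the shift toward HST3 was not tested. In the 18 other samples of lines the missing depth was -159 (D1 evolved) to 364 bases (F3 evolved), and no interval held 1026. Across samples the correlation of the first with the second bin was 0.11 over the 22 and 0.42 over the 18, a description only, since both states of a line enter and the bins share a library.

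**Figure D2:**
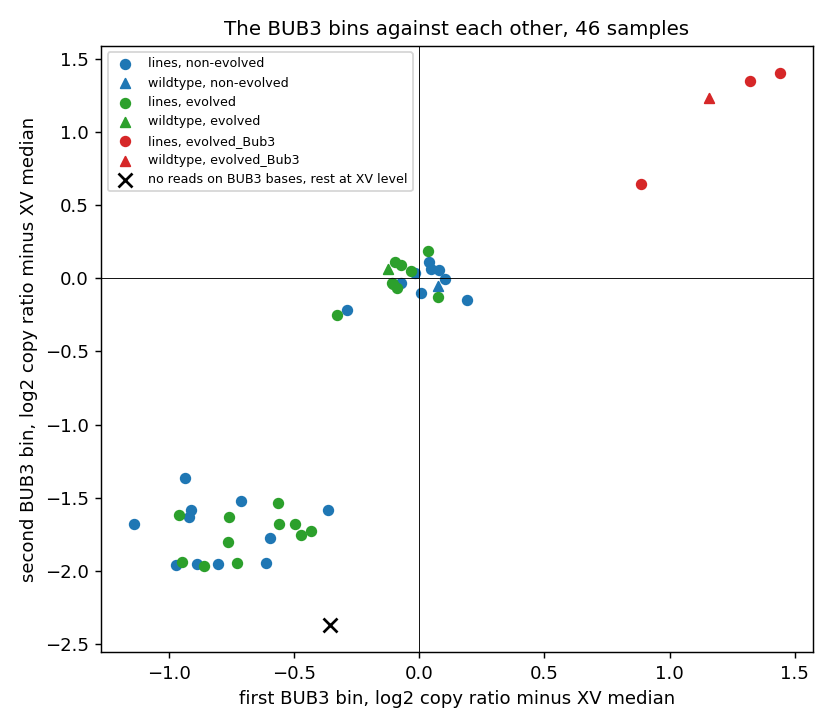
The second BUB3 bin (vertical) against the first (horizontal) in all 46 samples, as log2 copy ratio minus the median of XV; circles are lines, triangles the wildtype, and the cross marks the levels of -0.36 and -2.37 that a loss of the BUB3 bases alone would give. The 22 low samples lie to the left of and above the cross, and the 4 evolved_Bub3 samples lie at the upper right.

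Outside the BUB3 bins the depth of the lines stayed near that of the chromosome. The 800 levels of the 20 flank bins in the 40 samples of lines ran from -0.60 to 0.35 with an SD of 0.14, and 2 of 800 reached 0.5 in size, D1 evolved in the second STI1 bin at -0.60 and C1 evolved in the SFM1 bin at -0.54, named after their values were seen. The bin before BUB3, 378001 to 379000 within HST3, ran from -0.20 (D3) through -0.02 to 0.32 (F4) in the non-evolved and from -0.24 (A3) through 0.01 to 0.28 (D2) in the evolved lines. The bin after it, 381001 to 382000 within STI1, ran from -0.26 (B2) through -0.02 to 0.28 (D4) and from -0.32 (D3) through 0.01 to 0.22 (C3). Neither neighbour shared the drop, and 3 of these 4 lowest values came from lines without low BUB3. The flank bins that varied most over lines were the outermost bin on the HST3 side, 369001 to 370000 in YOR019W, with an SD of 0.17 in the non-evolved state, and the second bin in STI1, 382001 to 383000, with an SD of 0.21 in the evolved state and a lowest level of -0.60 in D1. The remaining flank bins cover HSP10 (a mitochondrial co-chaperonin), MCO10, SFM1, DDL1, AHC1, CIN5 (a stress-related transcription factor), YOR029W, DFG16, CRS5 (a pseudogene in the gene table) and HMS1, and none reached the spread of the BUB3 bins.

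**Figure D3:**
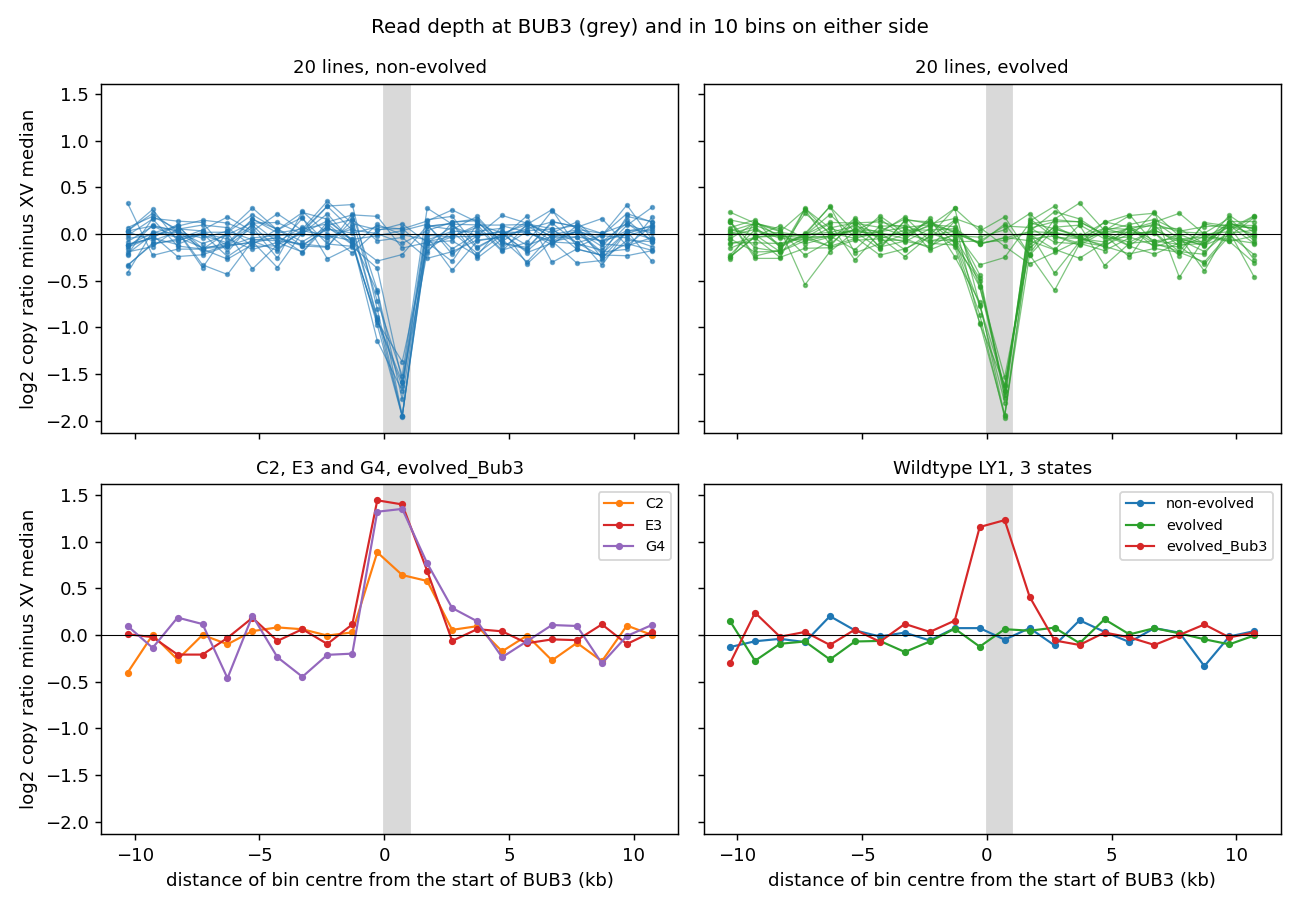
Level of the 22 bins against the distance of the bin centre from the start of BUB3 in kb, 1 line per sample, with BUB3 shaded. The drop in the lines (top row, lowest -1.97) is limited to both BUB3 bins, while the rise in the evolved_Bub3 samples (bottom row, up to 1.44) extends into the first STI1 bin.

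Set against the rest of the genome, the BUB3 bins were among the most variable over the lines. The SD of the second bin was 0.88 over the 20 non-evolved and 0.90 over the 20 evolved samples, against a median SD over all bins of 0.13 in each state. It ranked 72nd and 68th of 11810 tested bins. Most bins above it had few reads: among the 11605 bins with a mean of at least 50 reads it was the third in both states. The first bin, with SDs of 0.45 and 0.35, ranked 6th and 19th among these. Within chromosome XV, 17 to 21 of 1080 tested bins lay lower than the second BUB3 bin in the 22 low samples. Among the 1063 bins with a mean of at least 50 reads, at most 4 lay lower in any of them. These samples were set apart by this same bin, so its low rank in them is only a description.

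The BUB3 bins did not pass the test between the non-evolved and evolved states. In the paired limma fit over the 20 lines and 11810 bins the first bin had a difference (evolved minus non-evolved) of 0.02 ± 0.05 (SE, n = 20 lines, adjusted p = 0.990) and the second -0.01 ± 0.05 (SE, n = 20 lines, adjusted p = 0.995). SEs beside limma differences, here and below, are moderated: limma draws each partly from the variance of all bins tested. None of the 22 bins was called, with 1 of 11810 bins called in all (0.00847%), a bin of the Ty gene YOR142W-B with a mean of 11.8 reads, named as the only call; 560 bins had an unadjusted p under 0.05. The mean of both BUB3 bins differed by 0.01 ± 0.16 (SD, n = 20 lines), with 7 of 20 lines higher in the evolved state (p = 0.825 in a two-sided permutation test that flipped the signs of the line differences 100000 times). Since the labels do not say that the lines are independent, these p-values measure the spread between these lines only.

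Single lines moved in either direction, most of them by amounts within the 95th percentile of the bins of XV. In the second bin the evolved minus non-evolved difference ran from -0.58 in A3 to 0.41 in A2, with 9 of 20 lines higher. In the first bin it ran from -0.52 in F3 to 0.43 in E3, with 11 of 20 higher. For each line, the 95th percentile of the size of this difference over the bins of XV was 0.34 to 0.44, and 2 of 20 lines exceeded their own in the second bin and 3 of 20 in the first. Those in the second bin were A2 (56 and 89 reads) and A3 (78 and 59 reads). A bin at the XV median has more reads, so its counting error is smaller and the percentile is an unlike yardstick for low lines. No line crossed the space between low and high levels.

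The evolved_Bub3 samples had more depth at BUB3 than the chromosome around it, in all 3 lines and in the wildtype. In the second bin C2 rose from -1.73 (58 reads) in the evolved state to 0.64 (326 reads), E3 from -1.68 (72 reads) to 1.40 (485 reads) and G4 from -1.94 (55 reads) to 1.35 (334 reads). The wildtype, which was not low before, had 0.06 in the evolved and 1.23 in the evolved_Bub3 state, on 263 and 523 reads. In the first bin the evolved_Bub3 levels were 1.44 in E3, 1.32 in G4, 1.16 in the wildtype and 0.89 in C2. No evolved_Bub3 sample overlapped any sample of the other states in either bin, and C2 was the lowest of the 4 in both.

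Over the 3 lines the limma difference, evolved_Bub3 minus evolved, was 1.84 ± 0.15 (SE, n = 3 lines, adjusted p = 0.000542) in the first and 2.91 ± 0.15 (SE, n = 3 lines, adjusted p = 7.9e-06) in the second bin. Of the 11810 bins 12 were called (0.102%), 7 of them higher in evolved_Bub3 (0.0593%). Without C2, E3 or G4 the count was 32, 25 or 26, with both BUB3 bins called each time. Of the 22 bins both BUB3 bins were called. Among the 12, 3 had a mean of at least 50 reads: both BUB3 bins and the bin of URA3, the orotidine phosphate decarboxylase gene used as a selectable marker. The other 9 had a mean of 0.87 to 28.3 reads. The mean of both bins rose by 2.38 ± 0.48 (SD, n = 3 lines, higher in 3 of 3), for which the exact two-sided sign-flip permutation test gave p = 0.25, the smallest that 3 lines allow. When levels were taken relative to the sample baseline instead of XV, the differences were 1.86 and 2.92, the adjusted p-values were 0.948 and 0.320, and no bin was called.

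The rise reached into the first bin after BUB3, in STI1, and not into the whole HST3 bin before it. The first STI1 bin stood at 0.77 in G4, 0.69 in E3, 0.58 in C2 and 0.41 in the wildtype once evolved_Bub3, above all 40 non-evolved and evolved samples of lines, whose highest level was 0.28. Its limma difference was 0.63 ± 0.10 (SE, n = 3 lines, adjusted p = 0.0613), which is not a call. Under 5 alternative settings the adjusted p lay under 0.05, between 2.69e-05 and 0.0447. Under the other settings it lay above 0.05, from 0.0771 without C2 to 0.948 relative to the sample baseline. The HST3 bin on the other side had a difference of 0.04 ± 0.11 (SE, n = 3 lines, adjusted p = 0.988). The other 76 flank levels of the 4 evolved_Bub3 samples ran from -0.46 to 0.29. The highest of these was G4 in the second STI1 bin, and the limma difference of that bin was 0.02 ± 0.14 (SE, n = 3 lines, adjusted p = 0.996).

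On the linear scale the added depth in evolved_Bub3 was larger in E3 and G4 than in C2 and the wildtype, with 1 sample each and no test. In the second bin the copy ratio relative to XV went from 0.302 to 1.56 for C2, from 0.313 to 2.64 for E3, from 0.261 to 2.55 for G4 and from 1.04 to 2.35 for the wildtype. The gain was thus 1.26 in C2 and 1.30 in the wildtype, and 2.32 in E3 and 2.29 in G4. The first bin gained 86.5% to 101% as much as the second, although BUB3 fills only 22% of it. The first STI1 bin gained 22.7% to 37.5% as much. In each of the 4 samples the first STI1 bin thus gained less than either BUB3 bin.

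URA3 rose beside BUB3 and by about as much. Its bin, 116001 to 117000 of chromosome V and taken relative to the median of V, stood at 1.74 in G4, 1.57 in E3, 1.26 in the wildtype and 1.15 in C2 in the evolved_Bub3 samples. In the 40 other samples of lines it lay between -0.20 and 0.29. The limma difference was 1.48 ± 0.13 (SE, n = 3 lines, adjusted p = 0.000689). The linear gain was 86.9% to 111% of that of the second BUB3 bin in the same sample, and it was larger in E3 (2.02) and G4 (2.33) than in C2 (1.16) and the wildtype (1.44).

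**Figure D4:**
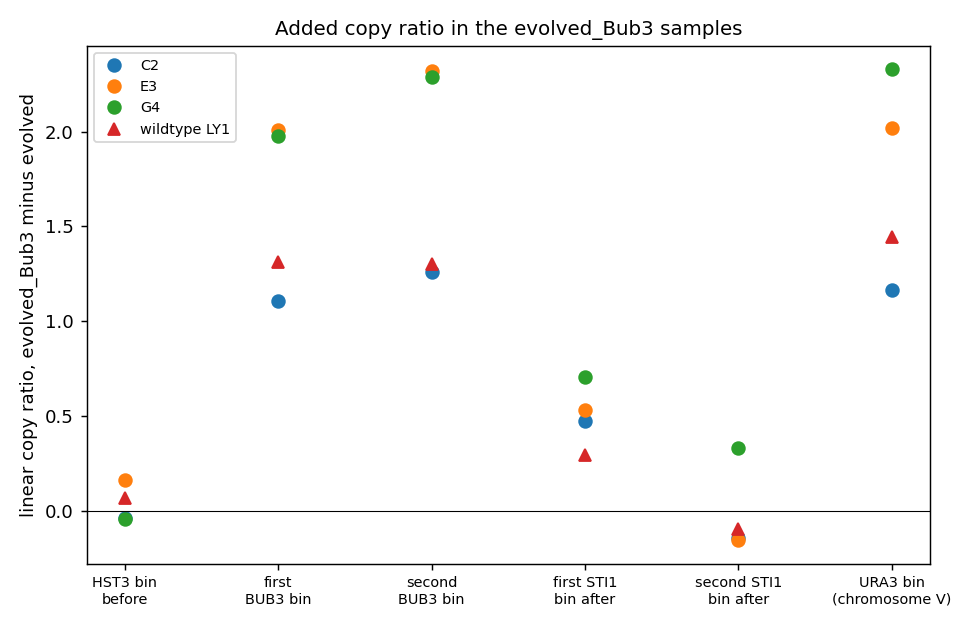
Linear copy ratio in the evolved_Bub3 sample minus that of the line's evolved sample (circles) or of the wildtype (triangles), for the bins around BUB3 and for the URA3 bin. Both BUB3 bins and URA3 gained 1.11 to 2.33, the first STI1 bin 0.30 to 0.70, and the bins beyond lay near 0, with G4 at 0.33 in the second STI1 bin.

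LEU2 ran opposite to BUB3. Over the 40 samples of lines every tested bin outside the locus was ranked by its Pearson correlation with the second BUB3 bin, each relative to its own chromosome. The lowest values came from 3 adjoining bins of chromosome III: 91001 to 92000 in LEU2 (r = -0.90), 92001 to 93000 in LEU2 and NFS1 (r = -0.90) and 90001 to 91000 with YCL019W, a Ty gene, and the tRNA gene SUP53 (r = -0.88). LEU2 encodes isopropylmalate dehydrogenase of leucine synthesis and is a standard selectable marker. By this measure the next bins were far weaker, OSH6 and ECM9 on XI at -0.60 and MPS1, a checkpoint kinase gene, on IV at -0.56. By Spearman correlation, or over all 46 samples, OSH6 and ECM9 came close to the bins of III. The most similar bins were those of DOA1 and SAC1 (r = 0.61), a bin of XV without a gene at 32001 to 33000 (0.58), HFM1 (0.57), the first bin of III (0.56) and MAG2 and CRN1 (0.55). The values share libraries, both states of a line enter, and 11788 bins were ranked, so these are descriptions.

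The strong negative values came from the separation between lines and not from variation within it. In the 22 samples with low BUB3 the LEU2 bin lay between 0.50 (E3 non-evolved) and 1.23 (G4 non-evolved) relative to III, a copy ratio of 1.42 to 2.35. In the 18 others it lay between -0.16 (A4 non-evolved) and 0.24 (A1 evolved), with no overlap. Within these sets the correlation was 0.32 and 0.36. The bin after it ran from 0.50 to 1.03 in the 22 and from -0.14 to 0.26 in the 18 samples. The bin before it was under-covered throughout the upper lines, at -1.23 to -0.73, and ran from -0.48 to 0.09 in the low ones. URA3 did not separate in this way, with -0.20 to 0.29 in the 22 and -0.16 to 0.23 in the 18.

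**Figure D5:**
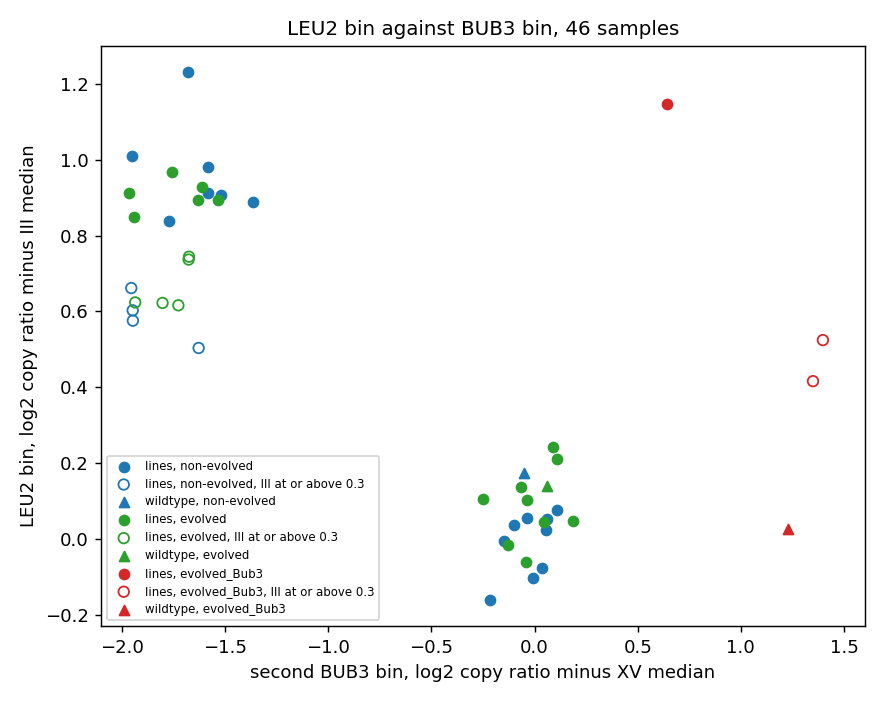
Level of the LEU2 bin relative to chromosome III (vertical) against the second BUB3 bin relative to XV (horizontal) in all 46 samples; open symbols mark samples with III at 0.3 or more above the sample baseline. The low-BUB3 samples of lines lie at 0.50 to 1.23 for LEU2 and the upper ones at -0.16 to 0.24, and the evolved_Bub3 samples of C2, E3 and G4 combine a high BUB3 bin with a LEU2 bin at 0.42 to 1.15.

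In the low lines part of the range of the LEU2 level, taken relative to III, went with the level of chromosome III. In the 9 of 22 samples whose III stood at 0.3 or more above the baseline the LEU2 bin lay at 0.50 to 0.74 relative to III, and in the other 13 at 0.84 to 1.23, a threshold chosen with these values known. As a difference of linear ratios to the sample baseline, LEU2 minus III, the excess was 0.797 to 1.37 in the 22 and -0.106 to 0.191 in the 18 samples. This linear excess did not split by III: it was 0.797 to 1.32 (median 1.03) in the 9 samples and 0.836 to 1.37 (median 0.952) in the 13. The wildtype had levels of 0.17, 0.14 and 0.03 in the non-evolved, evolved and evolved_Bub3 states. In C2 the LEU2 bin went from 0.62 in the evolved to 1.15 in the evolved_Bub3 sample, while III went from 0.96 to 0.04 above the baseline. In E3 it went from 0.74 to 0.52 and in G4 from 0.62 to 0.42, with III near 1 in both states (0.96 to 1.07). The bin thus stayed above 0 in all 3 lines while BUB3 had risen above its chromosome. Since the lines moved in opposite directions, the limma difference averaged to 0.03 (n = 3 lines, adjusted p = 0.993). The linear excess of LEU2 over III was 1.25 in C2, 0.889 in E3 and 0.702 in G4, the last below the range of the 22 samples.

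Genes that work with BUB3 in the checkpoint showed no call in their own bins. Each gene of this list and the next was read from the 1 bin that it overlaps most. Each bin was taken relative to the median of its own chromosome, so a gain or loss of the whole chromosome would not show here. Of the 8 listed (BUB1, MAD1, MAD2, MAD3, MPS1, CDC20, CDC55 and IPL1), 0 of 8 passed limma between the evolved and non-evolved states (against 0.00847% of all bins called), with differences of -0.01 to 0.09 (median 0.02, against -0.00 over all bins) and 1, CDC55 (a phosphatase subunit, named after its value was seen), at an unadjusted p under 0.05, as had 560 of 11810 bins. Between evolved_Bub3 and evolved 0 of 8 passed (against 0.102% of all bins called), with differences of -0.23 to 0.18 (median -0.04, against -0.00 over all bins) and 0 at an unadjusted p under 0.05, against 516 of 11810 bins. Single bins overstated these genes. As a mean over all its bins CDC55 differed by 0.03 between evolved and non-evolved (limma, unadjusted p = 0.385). BUB1 and CDC20, the ends of the range in evolved_Bub3 minus evolved, then had -0.05 and 0.03. Of 8 auxotrophic or counter-selectable marker genes (ADE2, CAN1, HIS3, LEU2, LYS2, MET17, TRP1 and URA3), 0 of 8 passed in the first (against 0.00847% of all bins called) and 1 of 8, URA3, in the second comparison (against 0.102% of all bins called).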

How the data were processed

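The authors deposited 1 table per sample with a log2 copy ratio for each bin of 1 kb, laid out as GATK writes denoised copy ratios, per the file headers. Libraries were made by tagmentation, per the labels' protocols, and Trimmomatic 0.39, BWA 0.7.17, Picard 2.27.1 and GATK are named per the submitters' processing notes. Read assignment to bins, duplicate handling and GC correction are steps not given in the sources used here. Contig names and lengths are those of R64, and genes came from the RefSeq table of that assembly (16 of 16 listed genes matched). Sequence of the locus was not used here.

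Each ratio was a whole number of reads over the median bin (100% within 0.01 reads), which gave the read counts. Empty bins were given 0.5 reads. The median of the bin's chromosome was subtracted, 269 of 12079 nuclear bins without reads in over 50% of samples were left out, and 11810 were tested with limma 3.58.1 in R 4.3.3 (line as block, Benjamini-Hochberg, threshold 0.05), after a test on simulated data. Single values used sign-flip permutation tests (SciPy 1.17.1). Lines were paired by the code in the titles; deviations from group means correlated by only -0.01 to 0.09 within lines (0 of 20 above 0.1). Read counts of any 2 samples of a group differed by more than sampling noise (chi-square per degree of freedom at least 1.68).

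Named bins were the BUB3 bins, their direct neighbours, called flank bins, the flank bin with the largest SD in each state, the 5 bins most and least like BUB3, called list members, LEU2 and URA3. Members, lists and this rule were chosen with earlier results of these data known. Alternatives were scaling, added reads, bin filters, variance model, no replicate block, the wildtype added and lines left out.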

Additional observations from a re-analysis of the deposited data

How the results depend on the processing

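Under 105 alternative values of 19 results, none reversed. With levels relative to the sample baseline the evolved_Bub3 minus evolved differences of the BUB3 bins were 1.86 (adjusted p = 0.948) and 2.92 (adjusted p = 0.320), and 0 bins were called in place of 12; the cause was not tested. Leaving out 1 line gave 25 to 32 called bins (32 without C2, 25 without E3, 26 without G4), with the first BUB3 bin at 1.63 to 2.10 and the second at 2.72 to 3.18, both called each time. Between evolved and non-evolved the 1 called bin became 0 relative to the baseline, 2 relative to neighbouring bins, 0 with no filter on bins, 0 with the robust variance model and 0 with no replicate block. Without the replicate block, that is unpaired, the BUB3 bins kept 0.02 (adjusted p = 0.995) and -0.01 (adjusted p = 0.998), and in evolved_Bub3 1.84 (adjusted p = 0.000118) and 2.91 (adjusted p = 1.67e-06). The mean of both bins, 2.38 in evolved_Bub3, had adjusted p = 3.54e-05 when limma was used in place of the permutation test. The STI1 bin (main adjusted p = 0.0613) had adjusted p = 0.0447 with 1 read added, 0.0286 over bins with reads in every sample, 2.69e-05 with the robust model, 0.0242 without the replicate block and 0.0426 with the wildtype added, and 0.0771 to 0.194 without 1 line. Its adjusted p was 0.948 relative to the sample baseline, 0.167 relative to neighbouring bins and 0.107 with no filter on bins. The LEU2 correlation was -0.69 over 46 samples and -0.67 as Spearman's. The bin of OSH6 and ECM9 then had -0.63 and -0.62, so the lead of LEU2 over it was small in both. Depth limits single values to bins of 127 to 291 reads at the level of XV, and a partial loss cannot be placed within a bin.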
